A study of Homo sapiens with 12 samples.

Results

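The genes described here are the histone acetyltransferases other than KAT5, the histone deacetylases, the sirtuins and a set of bromodomain readers. They were taken as a list of symbols, found through the symbol and gene ID of the authors' comparison tables and joined by gene ID to the 12 library files. All 39 listed genes were found, of 20433 genes listed in any library, and 38 of them were in the comparison tables. SIRT4 was matched by its gene ID in a RefSeq gene table. By role the list holds 14 writers, 18 erasers and 7 readers. RNA was measured by poly-A selected sequencing in H1975 cells (human, from a non-small cell lung cancer), with 3 libraries in each of 4 groups. Every group carried a tetracycline-inducible short hairpin and received 0.5 µg/ml doxycycline for 2 days, so hairpin induction is shared by the control. The control group expressed shControl in cells labelled wild type, and the groups sh-A, sh-B and sh-C expressed 3 different hairpins against KAT5, also called TIP60. The design text of the series names sh-B and sh-C only, whereas sh-A is known from titles and from its own comparison file. No label ties a library to a separate culture, so the p-values below describe the spread between libraries, part of which may be technical.

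Lysine acetylation of histones is placed by acetyltransferases (writers), removed by deacetylases (erasers) and bound by bromodomain proteins (readers). Zinc-dependent HDACs and NAD-dependent sirtuins are separate eraser families, and the writers fall into several families, with members that work in different complexes. KAT5 belongs to the MYST family of writers, together with KAT6A, KAT6B, KAT7 and KAT8, which act on overlapping histone sites.

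KAT5 was checked first in every library, as FPKM (fragments scaled by transcript length and by library size). It was 14.9, 12.8 and 12.9 FPKM in control 1, 2 and 3, and 9.26, 9.78 and 9.23 FPKM in sh-A 3, 4 and 5. It was 6.47, 6.43 and 5.96 FPKM in sh-B 3, 4 and 5, and 3.62, 3.24 and 3.76 FPKM in sh-C 1, 2 and 3. No group overlapped another, and the transcript left by the edgeR fit was 67.0% of control with sh-A, 47.0% with sh-B and 27.3% with sh-C. Library totals ran from 15631504 to 28073366 expected counts. The library sh-A 3 stood apart: 1517 and 1563 genes differed over 2-fold between it and sh-A 4 and sh-A 5, against 208 to 651 genes in the other pairs of libraries within a group. The libraries sh-B 3 and sh-C 1 were less distant, with 639 and 651 genes for sh-B 3 and 339 and 383 genes for sh-C 1. Control 2 differed from its group in 305 and 357 genes and was kept. Results are also given without sh-A 3, sh-C 1 and sh-B 3, a choice made with earlier results known. They are called below the 3 libraries that stood apart, although sh-C 1 was about as distant from its group as control 2. A set of 8 transcripts near absent outside sh-A was summed as CPM (counts scaled by library size with the TMM factors of the edgeR fit). The sums were 378, 59.5 and 60.3 CPM in sh-A 3, 4 and 5, and at most 0.178 CPM in the other 9 libraries. All 7 epithelial markers were present in every group and summed to 5159 to 5416 CPM in control, 3179 to 3484 CPM with sh-A, 4280 to 4606 CPM with sh-B and 5586 to 5963 CPM with sh-C. The 5 lung adenocarcinoma markers summed to 154 to 228, 63.4 to 173, 46.7 to 84.3 and 70.4 to 73.7 CPM in the same order, with SFTPC near 0 in every group. Fibroblast markers summed to 14.2 to 25.4 CPM over all libraries. Endothelial markers summed to 13.2 and 14.8 CPM in sh-A 4 and 5, and to 1.41 to 5.59 CPM in the remaining libraries. Leukocyte markers summed to 69 to 186 CPM, nearly all from CD68, with CD3E listed in no library. The part of these differences in the results below was not tested, and in bulk RNA fewer cells of a type and less RNA per cell cannot be told apart.

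In control cells HDAC1, the catalytic subunit of the SIN3, NuRD and CoREST corepressors, had the highest level of the 39 genes at 94.4 ± 1.05 FPKM (SD, n = 3). HAT1, which acetylates newly made histones, followed at 84 ± 2.84 FPKM, and the BET reader BRD2 at 82.8 ± 2.35 FPKM. HDAC1 was above HAT1 in every control library, whereas the ranges of HAT1 and BRD2 overlapped. BRD7, a bromodomain subunit of the PBAF remodeller, came next at 55 ± 2.42 FPKM and then HDAC3, the catalytic subunit of the NCoR corepressor, at 34.4 ± 0.297 FPKM, each apart from its neighbours. From EP300 (21.6 FPKM) downward most neighbours in the order overlapped. The mean was 20 FPKM or more for 8 genes, 10 to 20 FPKM for 15, 5 to 10 FPKM for 11 and 1 to 5 FPKM for 4. SIRT4, a mitochondrial sirtuin, was the 1 gene under 1 FPKM, at 0.293 ± 0.103 FPKM. Its fold changes carry standard errors of 0.56 to 0.59 on the log2 scale, so a change of the size seen in its neighbours was not detectable at this depth.

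**Figure D1:**
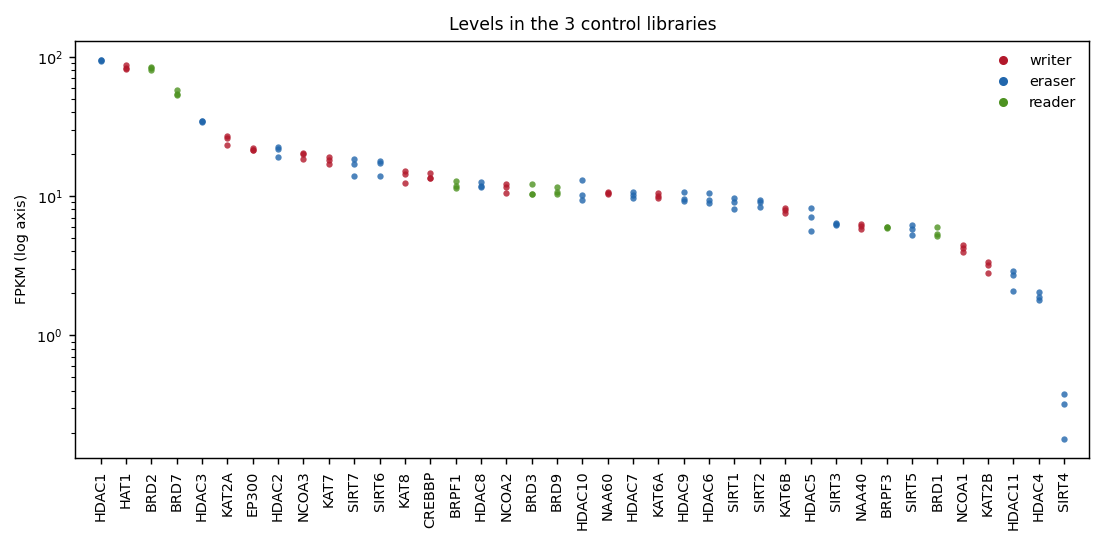
Levels of the 39 genes in the 3 control libraries, ordered by mean, as FPKM on a log axis. Each point is a library and the colour gives the role. HDAC1, HAT1 and BRD2 stand above 80 FPKM in every control library, and SIRT4 is below 1 FPKM.

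Promoter sequences are printed for the genes that changed by at least 1.5-fold with any hairpin and have a single start in the RefSeq promoter table. Each line gives the 250 bases before the start, 5′ to 3′ on the strand of the gene, from RefSeq on GRCh38.p14, a later build than the hg19 of the files. Capitals mark the E-box CACGTG and the GC box GGGCGG, searched on both strands (the reverse of the GC box reads CCGCCC), and the 2 motifs overlapped in 0 of these promoters.
KAT2B: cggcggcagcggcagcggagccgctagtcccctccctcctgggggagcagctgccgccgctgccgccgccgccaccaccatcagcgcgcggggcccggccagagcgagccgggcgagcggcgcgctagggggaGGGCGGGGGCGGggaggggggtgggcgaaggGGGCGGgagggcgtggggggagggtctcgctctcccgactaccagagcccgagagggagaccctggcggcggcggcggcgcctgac
SIRT1: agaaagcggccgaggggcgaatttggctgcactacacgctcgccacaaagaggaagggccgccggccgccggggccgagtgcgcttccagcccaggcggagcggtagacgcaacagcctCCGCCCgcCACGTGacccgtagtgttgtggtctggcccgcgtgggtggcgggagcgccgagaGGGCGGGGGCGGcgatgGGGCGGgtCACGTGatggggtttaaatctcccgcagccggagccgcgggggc
BRD7: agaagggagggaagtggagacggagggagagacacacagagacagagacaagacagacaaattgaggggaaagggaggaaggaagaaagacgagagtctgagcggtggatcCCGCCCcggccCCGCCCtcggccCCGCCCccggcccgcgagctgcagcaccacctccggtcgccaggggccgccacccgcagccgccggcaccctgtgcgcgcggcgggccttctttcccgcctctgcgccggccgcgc
NCOA3: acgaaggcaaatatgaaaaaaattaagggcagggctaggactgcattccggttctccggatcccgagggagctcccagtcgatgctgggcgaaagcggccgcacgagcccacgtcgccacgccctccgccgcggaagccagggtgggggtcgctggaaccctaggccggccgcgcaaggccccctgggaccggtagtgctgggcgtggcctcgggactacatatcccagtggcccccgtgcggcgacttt
HDAC10: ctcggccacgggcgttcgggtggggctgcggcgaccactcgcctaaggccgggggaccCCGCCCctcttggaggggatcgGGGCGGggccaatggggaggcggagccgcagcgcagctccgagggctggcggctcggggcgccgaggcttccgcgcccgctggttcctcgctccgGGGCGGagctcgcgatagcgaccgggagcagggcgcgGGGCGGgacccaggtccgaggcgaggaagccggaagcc
These windows are chr3:20040196-20040445 on the plus strand for KAT2B, chr10:67884406-67884655 on the plus strand for SIRT1, chr16:50368989-50369238 on the minus strand for BRD7, chr20:47501637-47501886 on the plus strand for NCOA3 and chr22:50251266-50251515 on the minus strand for HDAC10. The SIRT1 window held 2 E-boxes and 4 GC boxes, the HDAC10 window 4 GC boxes, the KAT2B and BRD7 windows 3 GC boxes each, and the NCOA3 window no match. Over all 35116 windows of this length in the table, 6.34% held an E-box and 42.6% a GC box. Of the 39 genes 34 had at least 1 of 60 entries in the table, 2 of them with an E-box and 24 with a GC box in any entry. These counts are per gene, and a gene with several entries has more windows to match. They are therefore not comparable with the shares per window. The matches describe letters only, and the RNA data hold no binding measurement at these windows.

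Of the 39 genes 17 were called against control with at least 1 hairpin. No share of all genes tested is given for counts over the 3 comparisons together. Such counts, here and below, are not read as a trait of the list. With sh-A 7 of 39 genes were called (17.9%, against 26.7% of the 15592 genes tested), at an edgeR adjusted p below 0.05 over all genes tested. Of these 5 rose (14.4% of all genes tested rose) and 2 fell (12.3%). With sh-B 12 were called (30.8%, against 30.1%), 3 higher and 9 lower, where 15.0% of all genes tested rose and 15.0% fell. With sh-C, the hairpin that left the least KAT5, 2 were called (5.13%, against 17.0%), 1 higher (9.79% of all genes tested) and 1 lower (7.16%). Leaving out 1 library in turn moved the count with sh-A between 4 (without control 2 or control 3) and 10. With sh-C it moved between 0 (without control 2) and 3, and was 1 without control 1, control 3, sh-C 2 or sh-C 3, while the count over all genes moved between 766 and 2762, from 2643. All 39 genes passed the filter on low counts. The median log2 fold change of the 39 was 0.03, 0.00 and 0.00 with sh-A, sh-B and sh-C, beside 0.02, 0.00 and 0.00 for all genes tested. The median size of the change, ignoring sign, was 0.18, 0.18 and 0.12 for the 39 and 0.25, 0.27 and 0.23 for all genes tested. The 3 comparisons use the same control libraries. By edgeR 0 genes were called in all 3 (1 had an unadjusted p below 0.05 in all 3, and DESeq2 called 0), 4 were called in 2 (NCOA3, HDAC9, BRD9 and BRPF3), 13 in 1 and 22 in none.

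**Figure D2:**
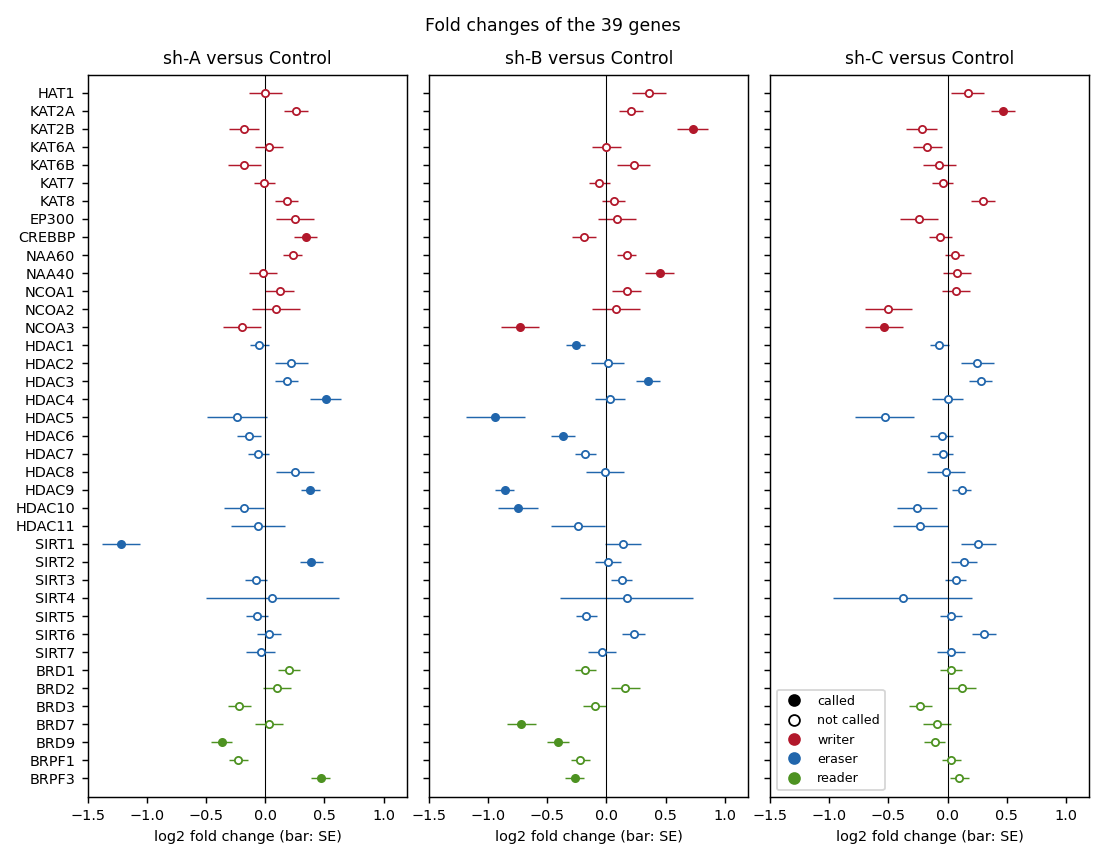
Log2 fold change of each of the 39 genes with sh-A, sh-B and sh-C against control from the edgeR fit, with the SE as a bar, and filled points for genes called at an adjusted p below 0.05. SIRT1 stands alone at the low end with sh-A (-1.22), the lower calls gather with sh-B, and with sh-C the filled points are KAT2A and NCOA3.

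Among the GNAT writers, KAT2A and KAT2B are alternative catalytic subunits of the SAGA and ATAC coactivator complexes, and each was called with 1 hairpin. KAT2B was 2.78, 3.38 and 3.17 FPKM in control 1, 2 and 3, 3.33, 2.57 and 2.61 FPKM in sh-A 3, 4 and 5, 4.32, 5.61 and 5.2 FPKM in sh-B 3, 4 and 5, and 2.55, 2.43 and 2.58 FPKM in sh-C 1, 2 and 3. Every sh-B library was above every other library, while sh-A overlapped control and sh-C lay just below it. KAT2B rose with sh-B by 0.73 on the log2 scale (SE 0.13, edgeR adjusted p = 0.0012, and 0.81 without the 3 libraries that stood apart). Its values with sh-A and sh-C were -0.18 (adjusted p = 0.32) and -0.22 (adjusted p = 0.26). KAT2A, named after its values were seen, was 26.2, 23.4 and 27.1 FPKM in control, 34.3, 32.9 and 28.8 FPKM with sh-A, 30.7, 28.1 and 28 FPKM with sh-B and 31.1, 34.3 and 35 FPKM with sh-C. All 9 libraries with a KAT5 hairpin were above the 3 control libraries. The rise of KAT2A was called with sh-C (0.47, SE 0.1, edgeR adjusted p = 0.0095), but not without control 2 (adjusted p = 0.051). With sh-A it was 0.26 (adjusted p = 0.064) and with sh-B 0.21 (adjusted p = 0.12), and its differences between sh-A and sh-C (-0.20, adjusted p = 0.13) and between sh-B and sh-C (-0.25, adjusted p = 0.072) were not called. NAA40, which acetylates the N-terminus of histones, rose with sh-B from 6.07 ± 0.252 to 8.11 ± 0.713 FPKM (0.45, SE 0.12, edgeR adjusted p = 0.012), with no overlap of the groups.

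NCOA3, a coactivator of nuclear receptors, was lower with 2 hairpins. It was 18.3, 20.2 and 19.9 FPKM in control, 12.8, 19.2 and 21 FPKM in sh-A 3, 4 and 5, 8.84, 12.8 and 13.1 FPKM in sh-B 3, 4 and 5, and 12.9, 11.4 and 13.7 FPKM in sh-C. The sh-B and sh-C libraries all lay below the control libraries, and in sh-A the library 3 was low and the other two were at control level. The fall with sh-B was -0.73 (SE 0.16, edgeR adjusted p = 0.0049) and -0.59 without the 3 libraries that stood apart. The fall with sh-C was -0.54 (SE 0.16, edgeR adjusted p = 0.037), and this call was lost without any 1 of the 6 libraries compared, at an adjusted p of 0.062 to 0.15. With sh-A the value was -0.20 (adjusted p = 0.38). CREBBP, the paralog of EP300, rose with sh-A from 13.8 ± 0.65 to 18.3 ± 1.12 FPKM (0.34, SE 0.1, edgeR adjusted p = 0.028). Without control 1, control 2, control 3, sh-A 3 or sh-A 5 the CREBBP call was lost, with adjusted p of 0.099, 0.087, 0.06, 0.05 and 0.082. The other 9 writers (HAT1, KAT6A, KAT6B, KAT7, KAT8, EP300, NAA60, NCOA1 and NCOA2) were called with no hairpin over the 12 libraries. Without the 3 libraries that stood apart all of these but KAT7 were called with at least 1 hairpin. In that fit 46.0%, 47.0% and 42.8% of all genes tested were called with sh-A, sh-B and sh-C. The MYST writers KAT6A, KAT6B, KAT7 and KAT8, relatives of KAT5, lay between -0.18 and 0.30 in the 3 comparisons over 12 libraries. Without the 3 libraries KAT6B was at -0.34 with sh-A (adjusted p = 0.0044) and 0.25 with sh-B (0.024), KAT6A at -0.27 with sh-C (0.023) and KAT8 at 0.32 with sh-C (0.02).

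SIRT1, a nuclear NAD-dependent deacetylase of histones and p53, had the largest change of the list. It was 9.11, 9.68 and 8.05 FPKM in control 1, 2 and 3, and 5.08, 3.38 and 3.55 FPKM in sh-A 3, 4 and 5. It was 10.3, 9 and 9.72 FPKM in sh-B 3, 4 and 5, and 10.3, 9.73 and 10.5 FPKM in sh-C 1, 2 and 3. The 3 sh-A libraries were below all others, and sh-A 3, the library richest in transcripts absent elsewhere, was the highest of the 3. With sh-A SIRT1 fell by 1.22 on the log2 scale (SE 0.16, edgeR adjusted p = 0.00021), to 0.43 of control, and without the 3 libraries that stood apart the value was -1.46 (adjusted p = 7.7e-08). With sh-B and sh-C, which left less KAT5, SIRT1 was at 0.14 (SE 0.15, adjusted p = 0.53) and 0.26 (SE 0.15, adjusted p = 0.25). SIRT2, a mainly cytoplasmic deacetylase that also acts on tubulin, rose with sh-A from 8.93 ± 0.533 to 12.1 ± 1.07 FPKM (0.39, SE 0.1, edgeR adjusted p = 0.016). Without control 2, control 3 or sh-A 4 that call was lost, with adjusted p of 0.068, 0.061 and 0.051. The mitochondrial sirtuins SIRT3, SIRT4 and SIRT5 and the chromatin-bound SIRT6 and SIRT7 were called with no hairpin over the 12 libraries.

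The class IIa deacetylases, which shuttle between nucleus and cytoplasm and bind MEF2 factors, moved in different ways. HDAC9 was 9.25, 10.6 and 9.58 FPKM in control, 12.1, 13.6 and 14.4 FPKM with sh-A, 5.06, 5.54 and 5.27 FPKM with sh-B and 10, 10.2 and 10.2 FPKM with sh-C. The sh-A libraries were all above control, the sh-B libraries all below it, and the sh-C libraries within the control range. HDAC9 rose by 0.38 with sh-A (SE 0.08, edgeR adjusted p = 0.0049) and fell by 0.86 with sh-B (SE 0.08, adjusted p = 2.2e-05), with 0.12 for sh-C (adjusted p = 0.33). Without the 3 libraries that stood apart these values were 0.43, -0.86 and 0.12. HDAC5 was 7.08, 5.61 and 8.24 FPKM in control, 3.77, 6.98 and 7.8 FPKM in sh-A 3, 4 and 5, 2.31, 4.06 and 4.39 FPKM in sh-B 3, 4 and 5, and 4.01, 4.8 and 4.93 FPKM in sh-C. The sh-A 3 and sh-B 3 libraries were the lowest of their groups, and both sh-B and sh-C lay below control. HDAC5 fell with sh-B by 0.94 (SE 0.25, edgeR adjusted p = 0.014, and -0.73 without the 3 libraries), a call lost without control 3 (adjusted p = 0.063). With sh-C it was at -0.53 (SE 0.25, adjusted p = 0.16), and at -0.46 (adjusted p = 0.0054) without the 3 libraries. HDAC4 rose with sh-A from 1.91 ± 0.116 to 2.83 ± 0.45 FPKM (0.51, SE 0.13, edgeR adjusted p = 0.014). Without control 2, control 3 or sh-A 5 the HDAC4 call was lost, with adjusted p of 0.056, 0.057 and 0.063. HDAC7 was called with no hairpin over the 12 libraries.

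Of the other zinc-dependent erasers, HDAC10, a polyamine deacetylase, was 10.1, 9.42 and 13 FPKM in control, 8.58, 13.1 and 8.25 FPKM with sh-A, 6.88, 5.84 and 6.09 FPKM with sh-B and 8.93, 7.8 and 8.87 FPKM with sh-C. The sh-B libraries were below every other library, and sh-A overlapped control. HDAC10 fell with sh-B by 0.75 (SE 0.17, edgeR adjusted p = 0.0065, and -0.87 without the 3 libraries that stood apart). HDAC6, a cytoplasmic tubulin deacetylase, fell with sh-B by 0.37 (SE 0.1, adjusted p = 0.014), a call lost without control 3 (adjusted p = 0.065). HDAC1 fell with sh-B from 94.4 ± 1.05 to 76.9 ± 2.52 FPKM (-0.26, SE 0.08, edgeR adjusted p = 0.019), lost without control 1, control 2 or sh-B 4 at adjusted p of 0.061, 0.055 and 0.072. HDAC3 was higher with sh-B at 42.8 ± 3.21 FPKM against 34.4 ± 0.297 FPKM (0.35, SE 0.1, edgeR adjusted p = 0.021). This HDAC3 call was lost on FPKM with limma (adjusted p of 0.058 to 0.068) and without control 1, control 2, control 3, sh-B 4 or sh-B 5 (0.072, 0.055, 0.078, 0.065 and 0.077). HDAC2, HDAC8 and HDAC11 were called with no hairpin over the 12 libraries. With sh-C 0 of 18 erasers were called by edgeR (17.0% of all genes tested were), 2 had an unadjusted p below 0.05 and 2 were called by DESeq2. Without the 3 libraries that stood apart 5 erasers were called with sh-C (HDAC2, HDAC3, HDAC5, SIRT1 and SIRT6), where 42.8% of all genes tested were, and HDAC7 was called with sh-B.

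Among the 7 readers, 2 were called with sh-A (26.7% of all genes tested were) and 3 with sh-B (30.1%). BRD7, of the PBAF remodeller, was 53.3, 57.8 and 53.9 FPKM in control, 67.4, 53 and 55.1 FPKM in sh-A 3, 4 and 5, 35, 30.1 and 32.7 FPKM with sh-B and 53.5, 47 and 46 FPKM with sh-C. The sh-B libraries were below all others, and the other groups overlapped. BRD7 fell with sh-B by 0.72 (SE 0.12, edgeR adjusted p = 0.00099, and -0.81 without the 3 libraries that stood apart), beside 0.03 with sh-A and -0.09 with sh-C. BRD9, the bromodomain subunit of the non-canonical BAF remodeller, fell with sh-A by 0.37 (SE 0.09, edgeR adjusted p = 0.0098) and with sh-B by 0.41 (SE 0.09, adjusted p = 0.0053). Its level went from 10.9 ± 0.762 FPKM in control to 8.78 ± 0.6 FPKM with sh-A and 8.04 ± 0.21 FPKM with sh-B, and with sh-C it was 9.59 ± 0.499 FPKM (-0.11, adjusted p = 0.43).

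BRPF3, a scaffold of MYST writer complexes, moved in opposite directions with 2 hairpins, and its libraries are given because of those values. It was 5.97, 6.03 and 5.87 FPKM in control, 8.84, 8.3 and 8.61 FPKM with sh-A, 4.65, 4.99 and 4.85 FPKM with sh-B and 5.69, 5.75 and 6.73 FPKM with sh-C. The sh-A libraries were above control, the sh-B libraries below it and the sh-C libraries on both sides. BRPF3 rose with sh-A by 0.47 (SE 0.08, edgeR adjusted p = 0.0011) and fell with sh-B by 0.27 (SE 0.08, adjusted p = 0.021). The fall was lost without control 1, control 2, sh-B 4 or sh-B 5, at adjusted p of 0.065, 0.064, 0.054 and 0.064. Its relatives BRPF1 and BRD1 and the BET readers BRD2 and BRD3 were called with no hairpin over the 12 libraries. With sh-C 0 of 7 readers were called by edgeR (17.0% of all genes tested were), 1 had an unadjusted p below 0.05 and 0 were called by DESeq2. Without the 3 libraries that stood apart BRD3 and BRD7 were called with sh-C, BRD2 with sh-B, and BRPF1 with sh-A and sh-B.

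**Figure D3:**
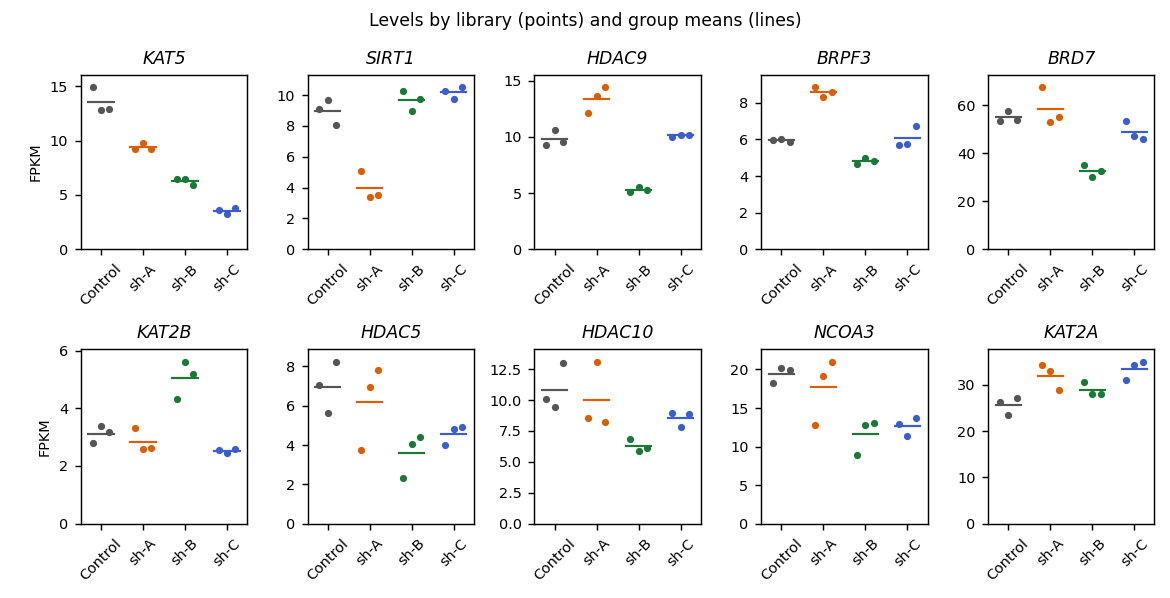
FPKM of KAT5 and of 9 genes of the list in each library (points) with the group mean (line), on axes that start at 0. KAT5 falls in steps from control to sh-C, while SIRT1 is low in the sh-A libraries alone, and HDAC9 and BRPF3 are high with sh-A and low with sh-B.

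The genes called in no comparison with control ranged from -0.50 (NCOA2 with sh-C) to 0.36 (HAT1 with sh-B) on the log2 scale. HAT1 was 126, 99.3 and 90.5 FPKM in sh-B 3, 4 and 5 against 82.1 to 87.2 FPKM in control, so sh-B 3 was the highest, and its adjusted p was 0.063. For EP300, the partner of CREBBP in acetylating enhancer histones, the values were 0.25, 0.09 and -0.24 with sh-A, sh-B and sh-C (SE 0.16 each). For BRD2 they were 0.10, 0.16 and 0.12 (SE 0.12 each). A single gene, SIRT6, had fold changes of 1 sign that grew from sh-A to sh-B to sh-C, the order of falling KAT5 (0.03, 0.23 and 0.31). That is 2.56% of the list, where 7.16% of all genes tested (1116 of 15592) had such an order.

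The hairpins were also compared with each other. Between sh-A and sh-B 16 of 39 genes were called (41%, against 47.5% of all genes tested), 11 higher with sh-A (25.3%) and 5 lower (22.2%). Between sh-A and sh-C 9 were called (23.1%, against 35.3%), 6 higher with sh-A (17.9%) and 3 lower (17.4%). Between sh-B and sh-C 9 were called (23.1%, against 27.9%), 3 higher with sh-B (13.0%) and 6 lower (14.9%). SIRT1 was lower with sh-A than with sh-B by -1.36 (SE 0.16, edgeR adjusted p = 2.3e-05) and than with sh-C by -1.48 (SE 0.16, adjusted p = 3.9e-05). HDAC9 was higher with sh-A than with sh-B by 1.24 (SE 0.08, edgeR adjusted p = 3.7e-07) and lower with sh-B than with sh-C by -0.99 (SE 0.08, adjusted p = 9.7e-06). BRPF3 differed between all 3 hairpins, by 0.74 for sh-A over sh-B (adjusted p = 1.2e-05), 0.37 for sh-A over sh-C (adjusted p = 0.0032) and -0.37 for sh-B against sh-C (adjusted p = 0.0041). KAT2B was higher with sh-B than with sh-C by 0.95 (SE 0.13, edgeR adjusted p = 0.00022) and lower with sh-A than with sh-B by -0.91 (SE 0.13, adjusted p = 0.00011). BRD7 was lower with sh-B than with sh-C by -0.63 (SE 0.12, edgeR adjusted p = 0.0025), and higher with sh-A than with sh-B by 0.75 (SE 0.12, adjusted p = 0.00031). For BRD9 the difference between sh-A and sh-B was 0.04 (SE 0.09, adjusted p = 0.77). Of the 34 calls between hairpins 17 held in every alternative tried, and 17 were lost in at least 1, at adjusted p up to 0.26. Leaving out any 1 of the 9 hairpin libraries ended at least 1 of those calls.

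**Figure D4:**
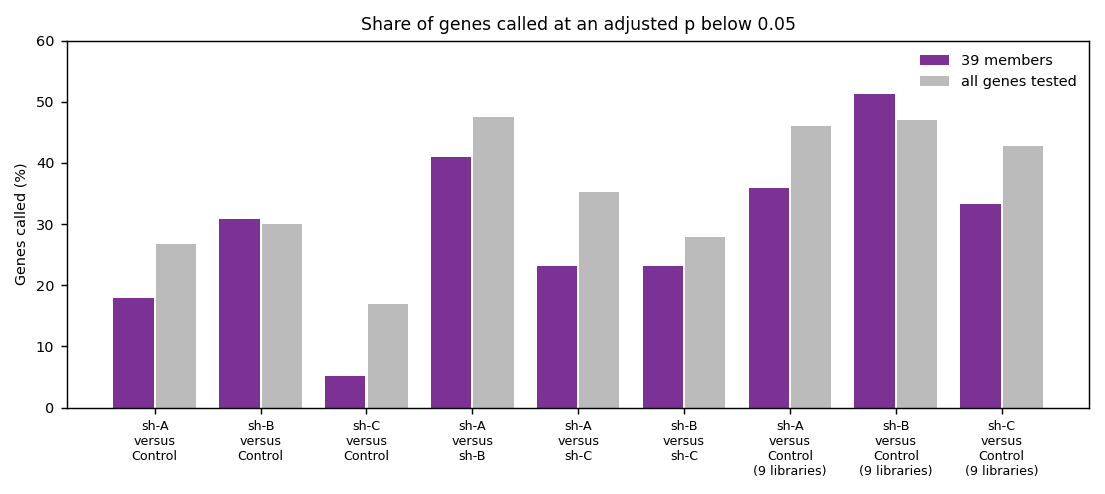
Share of the 39 genes (purple) and of all genes tested (grey) called at an edgeR adjusted p below 0.05 in each comparison, in percent, with the last 3 pairs of bars from the 9 libraries left once sh-B 3, sh-C 1 and sh-A 3 are dropped. The share of the 39 genes is below that of all genes in every pair except sh-B against control, where it is 30.8% against 30.1% with all libraries and 51.3% against 47.0% with 9.

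When sh-B 3, sh-C 1 and sh-A 3 were dropped together, more of the list was called, as were more of all genes tested. With sh-A it was 14 of 39 (35.9%, against 46.0% of 15723 genes tested), with sh-B 20 (51.3%, against 47.0%) and with sh-C 13 (33.3%, against 42.8%). Among the genes added, NCOA2 was at -0.59 with sh-C (adjusted p = 0.0015), KAT6B at -0.34 with sh-A (adjusted p = 0.0044) and SIRT6 at 0.37 with sh-C (adjusted p = 0.0052). EP300 was called with all 3 hairpins in that fit, at 0.28, 0.27 and -0.33 with sh-A, sh-B and sh-C (adjusted p of 0.023, 0.032 and 0.012). These genes were named after their values were seen. Each dropped library was the one farthest from the others of its group, so dropping it narrows the spread within groups by selection. The calls added in that fit are therefore no separate support.

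The partner subunits of these enzymes were described from 5 further lists. Of 19 SAGA and ATAC subunits, which carry KAT2A or KAT2B, 2 rose and 3 fell with sh-A, 4 rose and 1 fell with sh-B, and 4 rose and 1 fell with sh-C, with medians of -0.03, 0.08 and 0.09. The shares of all genes tested were 14.4% higher and 12.3% lower with sh-A, 15.0% and 15.0% with sh-B, and 9.79% and 7.16% with sh-C, and the medians of all genes tested were 0.02, 0.00 and 0.00. The ATAC subunit YEATS2 fell by 0.34 with sh-A and rose by 0.58 with sh-B (edgeR adjusted p = 0.006 and 0.00019). The SAGA subunit TADA1 went the other way, at 0.44 with sh-A and -0.70 with sh-B (edgeR adjusted p = 0.0072 and 0.00046). WDR5, a scaffold of several chromatin complexes, rose by 0.37 with sh-B (adjusted p = 0.0014) and by 0.26 with sh-C (adjusted p = 0.023). The sh-C call of WDR5 was lost without control 1, 2 or 3 or sh-C 2 or 3, at up to 0.097. It was also lost with limma, at 0.053 on log2(FPKM + 0.1) and 0.051 on log2(FPKM + 1) with a mean FPKM of at least 1. Of 15 partners of the MYST writers, 0 rose and 3 fell with sh-A, 2 rose and 2 fell with sh-B, and 2 rose and 3 fell with sh-C, with medians of -0.09, -0.04 and -0.08. Of all genes tested 14.4% rose and 12.3% fell with sh-A, 15.0% rose and 15.0% fell with sh-B, and 9.79% rose and 7.16% fell with sh-C. For the 0 that rose with sh-A by edgeR, 1 had an unadjusted p below 0.05 and DESeq2 called 0. MSL3, which directs KAT8 to chromatin, fell by 0.68 with sh-A (edgeR adjusted p = 0.0002) and rose by 0.27 with sh-B (adjusted p = 0.033). The rise of MSL3 was lost without control 1, 2 or 3 or sh-B 3 or 4, at up to 0.12. JADE1, a scaffold of KAT7, fell by 0.54 with sh-A (adjusted p = 0.0036). PHF20, a subunit of the KAT8 complex NSL, fell by 0.54 with sh-B (adjusted p = 0.00018) and by 0.22 with sh-C (adjusted p = 0.047). The sh-C call of PHF20 was lost without control 1, 2 or 3 or sh-C 2 or 3, at up to 0.16, and with no filter on low counts (0.074).

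Of 30 subunits of the HDAC corepressors SIN3, NuRD, CoREST and NCoR, 0 rose and 3 fell with sh-A, 6 rose and 4 fell with sh-B, and 3 rose and 7 fell with sh-C. The corresponding shares of all genes tested were 14.4% and 12.3% with sh-A, 15.0% and 15.0% with sh-B, and 9.79% and 7.16% with sh-C. The medians were -0.01, 0.00 and -0.06, and for the 0 that rose with sh-A by edgeR, 1 had an unadjusted p below 0.05 and DESeq2 called 0. The NuRD subunits GATAD2A and GATAD2B, paralogs that replace each other, moved apart with sh-B. GATAD2B fell from 6.51 to 3.7 FPKM (-0.78, SE 0.07, edgeR adjusted p = 1.1e-05) and GATAD2A rose from 55.7 to 72.3 FPKM (0.41, SE 0.06, adjusted p = 0.00056). With sh-C GATAD2B fell by 0.35 (adjusted p = 0.0066), and GATAD2A was at 0.11 (adjusted p = 0.26). ARID4B, a subunit of the SIN3 complex, fell by 0.79 with sh-B and by 0.60 with sh-C (edgeR adjusted p = 0.00083 and 0.011). Of 31 other readers, 3 rose and 4 fell with sh-A, 3 rose and 9 fell with sh-B, and 3 rose and 10 fell with sh-C, with medians of -0.03, -0.12 and -0.26. Of all genes tested 14.4% rose and 12.3% fell with sh-A, 15.0% rose and 15.0% fell with sh-B, and 9.79% rose and 7.16% fell with sh-C, with medians of 0.02, 0.00 and 0.00. ZMYND11, a reader of methylated histone with a bromodomain, fell by 0.83 with sh-B (adjusted p = 0.00026) and was at -0.04 with sh-C. SP110, an interferon-induced nuclear body protein, fell by 0.93 with sh-B and by 0.57 with sh-C (edgeR adjusted p = 0.0003 and 0.014). ATAD2B fell by 0.84 with sh-B and by 0.51 with sh-C (edgeR adjusted p = 0.00044 and 0.018). The sh-C calls of SP110 and ATAD2B were lost without control 2, control 3 or sh-C 2, and that of SP110 also without sh-C 3, at up to 0.069.

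Of 12 tested genes that supply acetyl-CoA or NAD (13 were listed), 1 rose and 1 fell with sh-A, 1 rose and 2 fell with sh-B, and 0 rose and 1 fell with sh-C. Among all genes tested these shares were 14.4% and 12.3%, 15.0% and 15.0%, and 9.79% and 7.16%. The medians were 0.08, -0.06 and 0.07, and for the 0 that rose with sh-C by edgeR, 2 had an unadjusted p below 0.05 and DESeq2 called 1. NMNAT2, an enzyme of NAD synthesis, went from 1.34 FPKM in control to 0.28 FPKM with sh-B (-2.23, SE 0.33, edgeR adjusted p = 0.00044). With sh-C NMNAT2 was at 0.627 FPKM (-1.02, SE 0.31, adjusted p = 0.042), a call lost without any 1 of the 6 libraries, at up to 0.15. It was also lost with limma on log2(FPKM + 0.1) and log2(FPKM + 1), at 0.054 and 0.062. ACSS2, the nuclear and cytoplasmic acetyl-CoA synthetase, fell by 0.81 with sh-B (adjusted p = 0.001). ACSS1, its mitochondrial relative, rose from 0.45 to 1.48 FPKM with sh-A (1.64, SE 0.34, edgeR adjusted p = 0.0039), both low levels. On log2(FPKM + 1), which compresses low values, the change of ACSS1 was 0.77 and that of NMNAT2 with sh-B -0.87.

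The authors' deposited tables give a PPEE value, read here as a probability that 2 groups are equally expressed. Of the 38 genes of the list in the authors' deposited tables, PPEE was below 0.05 for 9 with sh-A, 12 with sh-B and 5 with sh-C, and 7, 10 and 2 of these were also called by edgeR. No share of all genes in those tables is given, so these counts are not read as a trait of the list. The log2 ratio had the sign of the edgeR value for all 7, 12 and 2 genes called. For SIRT1 with sh-A the authors' deposited table gives a log2 ratio of -1.22, and for HDAC9 0.37 with sh-A and -0.87 with sh-B. For BRPF3 with sh-B it gives -0.27 with a PPEE of 1, so the fall called by edgeR was not called there. NAA40 with sh-B, also called by edgeR, has a log2 ratio of 0.45 and a PPEE of 0.13 in the authors' deposited table. Genes with a PPEE below 0.05 but no edgeR call were BRD3 and NAA60 with sh-A and BRD2 and BRPF1 with sh-B. With sh-C they were HDAC5, KAT8 and NCOA2.

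Some of these levels are uncertain because genes share exonic bases with a neighbour and no strand setting is known. In the GENCODE annotation 22 of the 39 genes overlap an exon of another gene, 14 of them a protein-coding gene and 11 a gene counted in these files. Among the genes that changed, BRD7 overlaps ADCY7, BRD9 overlaps TRIP13 and ZDHHC11, HDAC10 overlaps MAPK12, NCOA3 overlaps SULF2 and SIRT2 overlaps NFKBIB. In control SULF2 was at 0.105 CPM, ADCY7 at 48.2 CPM, TRIP13 at 101 CPM and NFKBIB at 26.5 CPM, all on the opposite strand. MAPK12 (17.2 CPM) and ZDHHC11 (10.7 CPM) lie on the same strand as HDAC10 (28.9 CPM) and BRD9 (29.3 CPM). A strand setting would not separate those pairs. No overlap with a gene counted in the files was found for SIRT1, HDAC9, BRPF3, KAT2A or KAT2B.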

How the data were processed

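Gene-level expected counts and FPKM values of 12 libraries were deposited by the authors, with 1 comparison table per hairpin. The submitters' processing notes list RSEM, HISAT and Bowtie2 and the build hg19. Versions, settings and strand handling were not given in the sources used here. The authors' deposited tables hold group means as a normalised signal, a log2 ratio and PPEE, read as a probability of equal expression and not as a p-value. Expected counts, 66.1% of them whole, were rounded and tested with the quasi-likelihood test of edgeR 4.0.16 (R 4.3.3), with TMM scaling, the default low-count filter (minimum count 10) and 1 fit over 12 libraries with group as the only term. P-values were adjusted by Benjamini-Hochberg over 15592 genes and called below 0.05. The SE is the log2 fold change divided by the root of F. The scripts were tested on simulated data. DESeq2 1.42.0, limma 3.58.1 on log2(FPKM + 1) and log2(FPKM + 0.1), other filters, and fits without single libraries were alternatives.

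The genes and lists were chosen with earlier results of these data known. Values of every library are given for genes called with a change of at least 1.5-fold against control, and the 3 genes of each further list with the smallest adjusted p are named. For sh-A and sh-B, the deviations of libraries with the same number correlated at 0.298, 0.12 and 0.219, each above the bound of 0.1 for treating them as pairs in a second fit. Unmatched numbers also passed it (0.131 for sh-A 4 with sh-B 5 and 0.154 for sh-A 5 with sh-B 4). Control and sh-C did not show this. Promoters came from a RefSeq table of GRCh38.p14 and overlaps from GENCODE. The number of per-sample columns without a sample was 0. No genome of the files' build was used, so no coordinates in hg19 are given.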

Additional observations from a re-analysis of the deposited data

Results flagged for a closer look

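Of the 39 genes, 2 were called in opposite directions with 2 hairpins against the same control, and the difference between those hairpins was itself called. No share of all genes tested with such calls is given, so this count is not read as a trait of the list. Between sh-A and sh-B 41% of the 39 genes were called, against 47.5% of all genes tested. For HDAC9 the values were 0.38 with sh-A and -0.86 with sh-B, and sh-A was higher than sh-B by 1.24 on the log2 scale (SE 0.08, edgeR adjusted p = 3.7e-07). For BRPF3 they were 0.47 and -0.27, and sh-A was higher than sh-B by 0.74 (SE 0.08, edgeR adjusted p = 1.2e-05). In both genes the libraries of sh-A, sh-B and control did not overlap, whereas those of sh-C overlapped control. With sh-B 3, sh-C 1 and sh-A 3 dropped the differences between sh-A and sh-B were 1.30 and 0.70. The fall of BRPF3 with sh-B was lost without control 1, control 2, sh-B 4 or sh-B 5.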

How the results depend on the processing

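With 3 libraries a group, counts of calls moved with single libraries. Of 21 calls of listed genes against control, 11 held in each of the 15 or 16 alternatives run (BRD7, HDAC10, KAT2B, NAA40 and NCOA3 with sh-B, SIRT1 with sh-A, and HDAC9 and BRD9 with sh-A and sh-B, and BRPF3 with sh-A), 10 were lost in at least 1 and 0 reversed. The numbers of listed genes called with sh-B 3, sh-C 1 and sh-A 3 dropped were 14 with sh-A, 20 with sh-B and 13 with sh-C (7, 12 and 2 with all libraries), 16 between sh-A and sh-C and 18 between sh-B and sh-C (9 each). For counts between hairpins in this section no share of all genes tested is given. Those counts are not read as a trait of the list. The further lists held 107 genes tested with all libraries. With the 3 libraries dropped 41 genes of these lists were called with sh-A and 64 with sh-C (20 and 34 with all libraries). The shares of all genes tested were 46.0% with sh-A and 42.8% with sh-C (26.7% and 17.0% with all libraries). Of all genes 7231, 7388 and 6725 were called with sh-A, sh-B and sh-C (4167, 4688 and 2643 with all libraries). With sh-C the listed genes called were 4 with DESeq2, where 3253 of all genes were called. They were 8 with only the 2 groups compared, where 4862 of all genes were called. Between sh-A and sh-B only the 2 groups compared gave 10 (16). Leaving out 1 library in turn gave 4 to 10 listed genes with sh-A, 9 to 12 with sh-B and 0 to 3 with sh-C, and 10 to 18 between sh-A and sh-B, 4 to 15 between sh-A and sh-C and 4 to 11 between sh-B and sh-C. The 0 came from edgeR without control 2, where 6 listed genes had an unadjusted p below 0.05; DESeq2 was run with all libraries only. Genes of the further lists ranged from 10 to 23 with sh-A and 11 to 39 with sh-C. The count over all genes ranged from 2985 to 4892 with sh-A and from 766 to 2762 with sh-C. Genes ordered by KAT5 level were 2 in place of 1 with DESeq2, with other size factors and in the 3 limma fits, and 0 to 2 without 1 control library. The cause of these shifts was not tested.

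The replicate block called 6 listed genes with sh-C in place of 2, and 3621 of all genes in place of 2643. In this comparison the numbers do not pair the libraries (correlations of -0.058, -0.132 and 0.13), and PHF20 was then at an edgeR adjusted p of 0.062. Between sh-A and sh-B the block gave 18 in place of 16 and ended none of the 16 calls (0). The other groups share 1 number, so no paired fit was run. The median of all genes moved by at most 0.07 under the scalings. At this depth SIRT4 alone, under 1 FPKM or CPM, was limited by counting.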
